A study of Drosophila montana with 12 samples.

Results

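The contigs described here are the 100 whose expression was highest at the critical day length (CDL) relative to both other light cycles of the study, out of 31233 contigs of the *Drosophila montana* transcriptome. A contig is an assembled stretch of transcript, and its level is given in CPM, counts per 1000000 reads after TMM scaling of the libraries. CPM is not divided by contig length, so levels are compared between libraries of a contig and not between contigs. The members were chosen by their measured levels. Contigs entered if their mean over 12 libraries was at least 5 CPM and their highest library was under 5 times the second, which 20932 did after 2 named contigs were left out, and were then ranked by a ratio: the smaller of the 2 CDL group means, diapausing and nondiapausing, over the larger of the means of diapausing LD 16:8 and nondiapausing LD 22:2 females.

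RNA was sequenced from pools of 10 whole females, 21 d of age, in 4 groups of 3 libraries: diapausing females under light:dark (LD) 16:8, diapausing and nondiapausing females at the CDL, for which the sample labels give 17.5:5.5 (a sum of 23 h), and nondiapausing females under LD 22:2. All 6 libraries of LD 16:8 and LD 22:2 came from the isofemale line 175OJ8, the descent of a single wild-caught female. Each CDL group held 1 library of line 175OJ8, 1 of line 265OJ8 and 1 of line 3OL8, so for lines 265OJ8 and 3OL8 line and light cycle cannot be told apart, and only line 175OJ8 was measured at all 3 light cycles. The labels and the methods of the study differ in the light phase at the CDL. No treatment other than the light cycle is labelled, and diapausing and nondiapausing females were separated by their ovaries. Library depth ran from 2986505 reads (3OL8, nondiapausing, CDL) to 6637623 reads. The diapause labels were checked with the yolk protein gene Yp2, which reproducing females express: it lay at 23.5 to 37.9 CPM under LD 16:8 and at 56.9 to 124 CPM in diapausing females at the CDL, against 388 to 453 CPM in nondiapausing females at the CDL and 258 to 389 CPM under LD 22:2.

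The critical day length is the day length at which a population changes over between reproducing and entering adult diapause, an arrest of ovarian development before winter, so that females of both states occur under the same light cycle. An isofemale line descends from the progeny of a single fertilized female, and lines kept apart can differ in sequence and in expression. In a transcriptome assembled without a genome, a gene can be spread over several contigs.

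The ratio that chose the members ran from 1.28 to 50.7, with a median of 1.46, while the median over all 20932 eligible contigs was 0.592. It was at least 2 in 35 members and under 1.5 in 52. The members just inside the limit, contig_21694 and contig_3500, and the contigs just outside it, contig_909 and contig_20195, had the same ratio to 3 digits, 1.28. Within the eligible contigs, 1124 (5.37%) had a ratio above 1, that is, a mean at the CDL above both other means in both diapause states. These values are what the members were chosen by and are given as a description.

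High levels at the CDL were not shared by the lines in much of the list. Both 3OL8 libraries lay at 2 or more times every other library in 37 members, and 3 members had the same pattern in line 265OJ8 and 0 in line 175OJ8. For these 37 line and light cycle cannot be told apart, so the list is called here by its rule. These classes were set after the values had been seen. They are not alike across the lines: for line 175OJ8, every other library includes those of the other light cycles, which are of the same line. A contig equally high in line 175OJ8 at every light cycle could thus not enter its class, and nothing is read from the 0. The 3OL8 pattern occurred in 41 (0.195%) of the 21051 contigs whose mean reached 5 CPM, the 265OJ8 pattern in 3 (0.0143%) and the 175OJ8 pattern in 0. It was found in 8 of the 10 highest ranked members, in 9 of ranks 11 to 20, in 16 of ranks 21 to 40 and in 4 of ranks 41 to 100. The highest of the 12 libraries was 3OL8 diapausing in 57 members, 3OL8 nondiapausing in 11, another CDL library in 31 and a library from another light cycle in 1. Both 3OL8 libraries were above the other 10 in 56 members and in 1.36% of eligible contigs. When both 3OL8 libraries were left out, the ratio stayed above 1 in 61 members and at 2 or more in 4; in the 37 contigs high in 3OL8 its median went from 3.27 to 0.662, with a range of 0.32 to 1.24. In the other 63 members the ratio without 3OL8 had a median of 1.31, and the ratio of each line alone had medians of 1.10 (175OJ8), 1.27 (265OJ8) and 1.36 (3OL8).

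**Figure D1:**
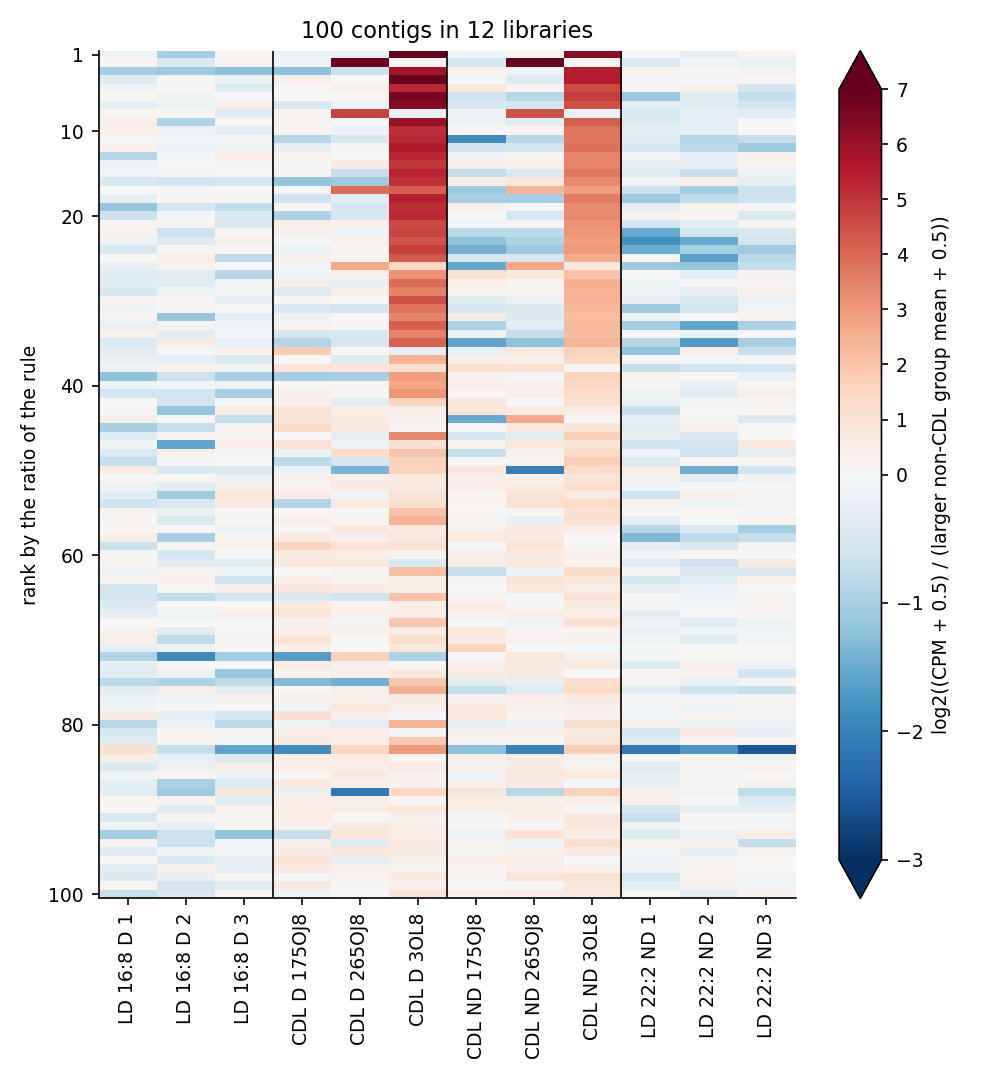
Level of the 100 members (rows, in order of the ratio) in the 12 libraries (columns), as log2 of CPM over the larger of the LD 16:8 and LD 22:2 means, with 0.5 CPM added to both; the colour scale is stretched differently below and above 0. The dark columns in the upper rows are the diapausing and nondiapausing 3OL8 libraries, which were at 2 or more times every other library in 37 members.

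At the top of the list, contig_333, which had no symbol, was counted in 324 CPM (1341 reads) of the diapausing 3OL8 library and 80.5 CPM (271 reads) of the nondiapausing 3OL8 library. Every other library held 0 to 5 reads of it, under 1 CPM each. The contig was thus near 0 in line 175OJ8 at all 3 light cycles and in line 265OJ8 at the CDL, and its ratio of 50.7 came from the 3OL8 libraries alone.

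smooth (contig_13779) encodes an RNA-binding protein of the hnRNP family with a role in axon guidance in *D. melanogaster*. It had 13.0, 17.8 and 14.3 CPM under LD 16:8, and 16.2, 16.1 and 18.1 CPM under LD 22:2. At the CDL, diapausing females had 22.0 (175OJ8), 16.6 (265OJ8) and 2576 CPM (3OL8), and nondiapausing females 16.5, 12.7 and 779 CPM. Lines 175OJ8 and 265OJ8 at the CDL overlapped with both other light cycles, and the 3OL8 libraries stood apart from all. The group mean of diapausing CDL females, 872 ± 1476 CPM (SD, n = 3), had an SD larger than the mean.

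A contig with the symbol CG12316 (contig_491) showed the same order. Its level was 8.48, 8.30 and 7.34 CPM under LD 16:8 and 18.9, 17.9 and 16.6 CPM under LD 22:2. At the CDL it was 7.32, 11.2 and 1052 CPM in diapausing females of 175OJ8, 265OJ8 and 3OL8, and 21.1, 16.3 and 839 CPM in nondiapausing females. Outside line 3OL8 every nondiapausing library, at 16.3 to 21.1 CPM, was above every diapausing one, at 7.32 to 11.2 CPM.

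The remaining 5 of the 10 highest ranked members that were high in 3OL8 had no symbol. contig_6492, which with contig_23710 and smooth was among the 3 members of highest mean CPM, had 3209 and 917 CPM in the diapausing and nondiapausing 3OL8 libraries and 14.5 to 35.1 CPM in the other 10. contig_784 had 76.2 and 47.2 CPM there and 0.83 to 2.68 CPM elsewhere. For contig_10048 the 3OL8 libraries were at 464 and 125 CPM against 3.39 to 6.73 CPM. For contig_14500 they were at 245 and 71.2 CPM against 1.45 to 4.57 CPM, and for contig_472 at 264 and 99.2 CPM against 5.41 to 9.13 CPM. That none of the 5 overlapped between the 3OL8 libraries and the rest follows from how the class was set.

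Abl (contig_9106), a nonreceptor tyrosine kinase that acts in axon outgrowth in *D. melanogaster*, had a weaker form of the pattern. It had 3.91, 3.94 and 2.65 CPM under LD 16:8 and 5.13, 4.17 and 6.08 CPM under LD 22:2. At the CDL, diapausing libraries had 4.68 (175OJ8), 6.62 (265OJ8) and 49.3 CPM (3OL8), and nondiapausing libraries 11.3, 8.54 and 22.0 CPM. All 6 CDL libraries were above every library of their own diapause state at the other light cycle, by least in line 175OJ8 for diapausing females, at 4.68 against at most 3.94 CPM, and the 3OL8 libraries were the highest in both states.

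Among the members high in line 265OJ8, contig_23710 was second in the list. Its 265OJ8 libraries were at 1928 CPM (diapausing) and 2518 CPM (nondiapausing), and the other 10 libraries, 3OL8 included, at 11.5 to 19.1 CPM. contig_22247 had 399 and 330 CPM in the 265OJ8 libraries and 10.3 to 16.1 CPM elsewhere. contig_23189 had 135 and 127 CPM in 265OJ8, 55.1 and 32.4 CPM in 3OL8 and 18.9 and 6.55 CPM in 175OJ8, beside 17.2 to 23.6 CPM under LD 16:8 and 8.51 to 11.9 CPM under LD 22:2. That the 265OJ8 libraries of these 3 contigs did not overlap with any other follows from how the class was set. Leaving out 3OL8 raised the ratio of contig_23710 from 39.8 to 59.1.

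dpp (contig_19630), a BMP family signal that patterns embryo and wing in *D. melanogaster*, was high in both lines that were sampled only at the CDL. Under LD 16:8 it had 13.5, 12.7 and 12.8 CPM and under LD 22:2 7.98, 6.08 and 8.16 CPM. Diapausing females at the CDL had 13.2 (175OJ8), 204 (265OJ8) and 244 CPM (3OL8), and nondiapausing females 5.81, 70.1 and 102 CPM. In line 175OJ8 the CDL levels were within or below the range of the same diapause state at the other light cycle, and in 265OJ8 and 3OL8 they were above every library of the other light cycles. It was the single member at 2 or more times the larger non-CDL mean in both 265OJ8 and 3OL8 libraries of both states.

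The same ratio was taken for each line alone, as the smaller of its diapausing and nondiapausing CDL libraries over the larger of the LD 16:8 and LD 22:2 means. In line 3OL8 it was above 1 in 91 members, in line 265OJ8 in 53 and in line 175OJ8 in 44; among all eligible contigs the shares were 7.3%, 5.12% and 6.38%. These libraries were used by the rule, so nothing is read from the members' shares. It was above 1 in all 3 lines in 27 members, in 3OL8 alone in 34, in 265OJ8 and 3OL8 in 19 and in 175OJ8 and 3OL8 in 11. At a ratio of 2 or more, 51 members were high in 3OL8 alone, 3 in 265OJ8 alone, 1 (dpp) in both and 45 in no line. Line 175OJ8 by itself reached at most 1.99.

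**Figure D2:**
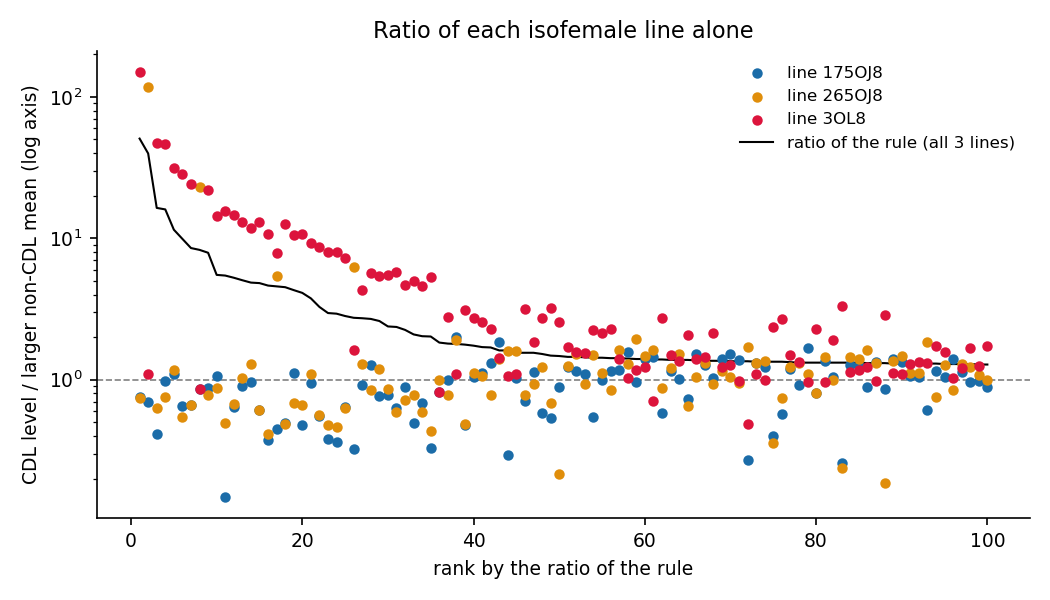
Ratio of each isofemale line alone (points; log axis) and of the 3 lines together (black curve) against rank. In the upper ranks the highest point is mostly that of 3OL8, with 265OJ8 at ranks 2 and 8, and 175OJ8 points lie mostly below the dashed line at 1 in ranks 1 to 50 (median 0.731) and mostly above it in ranks 51 to 100 (median 1.14).

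That highest value in line 175OJ8 belonged to Pepck (contig_1338), phosphoenolpyruvate carboxykinase, which catalyses the committed step of glucose synthesis from pyruvate and amino acids. Its libraries had 155, 203 and 160 CPM under LD 16:8 and 105, 115 and 116 CPM under LD 22:2. Diapausing females at the CDL had 343 (175OJ8), 329 (265OJ8) and 370 CPM (3OL8), and nondiapausing females 375, 362 and 189 CPM. Thus 5 of the 6 CDL libraries lay above all libraries of the other light cycles, and the nondiapausing 3OL8 library lay below 1 of them. The group means were 173 ± 26.3 (LD 16:8), 347 ± 21.0 (CDL, diapausing), 309 ± 104 (CDL, nondiapausing) and 112 ± 5.71 CPM (LD 22:2; SD, n = 3 each). Its ratio was 1.79 with all lines, 1.94 without 3OL8 and 1.10 in 3OL8 alone.

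A further member, contig_1828, had the same sequence hit as Pepck. It had 168, 63.7 and 150 CPM under LD 16:8 and 49.8, 72.2 and 77.4 CPM under LD 22:2, against 200, 164 and 220 CPM in diapausing and 202, 205 and 129 CPM in nondiapausing CDL females, lines ordered as above. Its lowest CDL library was again the nondiapausing 3OL8 library, and LD 16:8 overlapped with the CDL. The sources used here do not say whether contig_1338 and contig_1828 come from a single gene.

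The next highest in line 175OJ8 were contig_12463, with a ratio of 1.86 in that line, and contig_2949, with 1.67. contig_12463 had 5, 1.66 and 6.53 CPM under LD 16:8, 2.56, 4.51 and 4.84 CPM under LD 22:2, and 6.22 to 8.74 CPM at the CDL. contig_2949 had 64.4 to 137 CPM under LD 16:8 and 88.2 to 101 CPM under LD 22:2, beside 201, 127 and 90.2 CPM in diapausing and 155, 102 and 113 CPM in nondiapausing CDL females. In both contigs the CDL libraries overlapped with those of LD 16:8, and in contig_2949 with those of LD 22:2 as well. At the other end, the ratio of line 175OJ8 was 0.149 for contig_1943, 0.259 for contig_338 and 0.271 for contig_15323. contig_1943 had 1.42 and 0.447 CPM in the 175OJ8 libraries at the CDL and 136 and 47.2 CPM in 3OL8. contig_338 varied within groups as well: 84.6, 24.5 and 13.3 CPM under LD 16:8, and 115 and 9.72 CPM in diapausing and nondiapausing 265OJ8 females at the CDL. contig_15323 was highest in diapausing 265OJ8 females at the CDL, at 25.1 CPM, with 2.03 and 8.04 CPM in 175OJ8.

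In 3 members all 6 CDL libraries lay above all 6 others, as they did in 14 of the 20932 eligible contigs (0.0669%). All 3 had low levels and small differences, and they were picked out after their values had been seen. contig_17808 had 3.82 to 6.12 CPM at the other light cycles and 6.30 to 9.50 CPM at the CDL. contig_13109 had 3.46 to 8.26 against 8.94 to 13.2 CPM, and contig_14233 had 3.53 to 5.73 against 6.53 to 8.54 CPM. contig_909, just outside the list, had the same order, with 32.2 to 45.5 CPM at the other light cycles and 51.7 to 58.5 CPM at the CDL. Since the rule compares the same groups, these orders are a description.

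**Figure D3:**
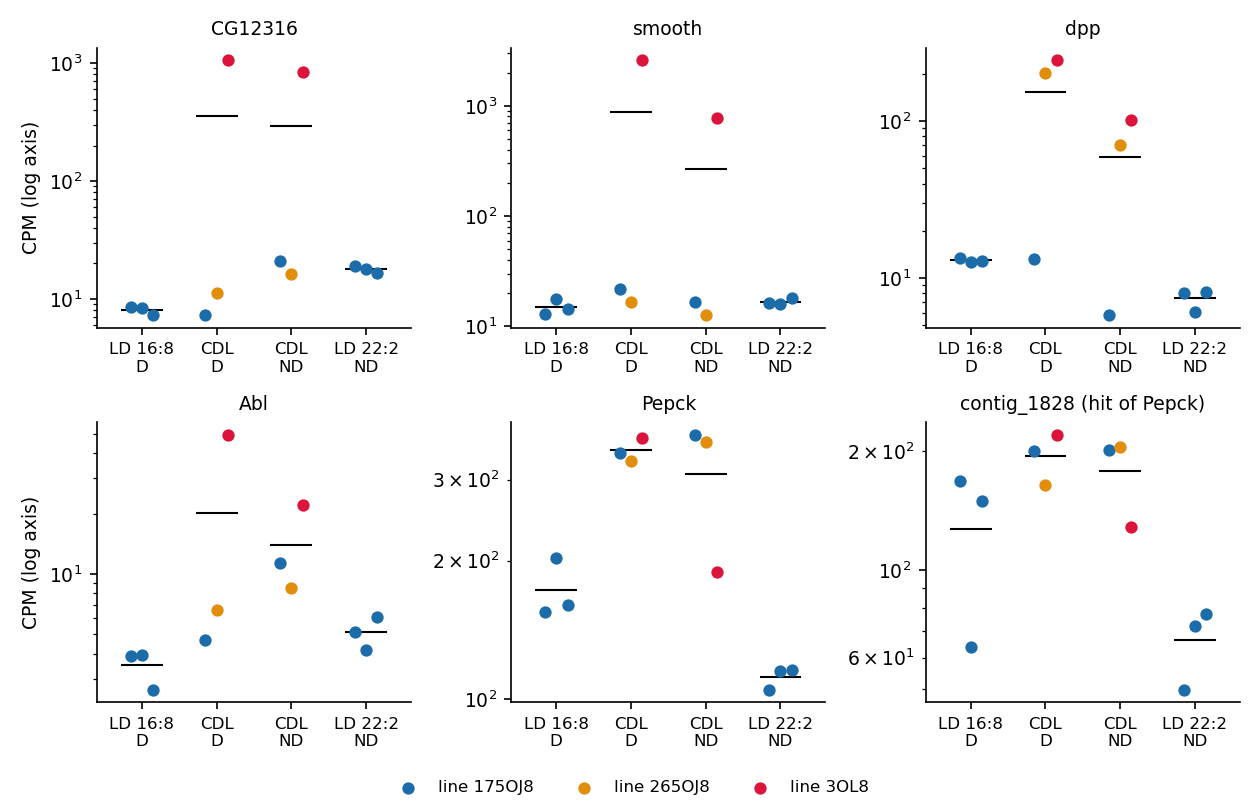
CPM (log axis, scaled per panel) in each library of the 5 members with a gene symbol and of contig_1828, by group; points are libraries coloured by isofemale line and bars are group means of 3. CG12316 and smooth are high in the 3OL8 points only, dpp in 265OJ8 and 3OL8, and Pepck at the CDL in all lines except nondiapausing 3OL8, at 189 CPM.

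The members took a small part of each library except in line 3OL8. Together they made up 0.13 to 0.183% of reads under LD 16:8 and LD 22:2, 0.218 and 0.256% in line 175OJ8 at the CDL, and 0.44 and 0.609% in line 265OJ8, diapausing and nondiapausing in turn. In line 3OL8 the shares were 1.86% and 0.924%. The summed level of the members was 1413 to 1781 CPM outside the CDL, 2432 and 2227 CPM in 175OJ8, 4878 and 5350 CPM in 265OJ8, and 21064 and 8191 CPM in 3OL8.

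Within line 3OL8, 36 of the 37 contigs were higher in diapausing than in nondiapausing females. Diapausing over nondiapausing had a median of 3.1, against 0.979 over eligible contigs in the same libraries. It was between 2 and 5 in 32 of the 37, against 18.4% of eligible contigs. The quartiles were 2.51 and 3.52, and the range was 0.959 to 4.16. The upper end is set by the rule, which drops contigs whose highest library is 5 or more times the second: contig_2606 and contig_3339 had the 3OL8 pattern with factors of 6.24 and 5.31 and are not members. contig_333 had a factor of 4.03, contig_10048 3.72, contig_6492 3.50, contig_14500 3.44 and smooth 3.31, whereas CG12316 had 1.25 and contig_784 1.61. In the same contigs the median of the factor was 1.09 in line 175OJ8 and 1.19 in line 265OJ8. Each line had 1 library per state, so this difference between lines could not be tested, and the members of the class share both libraries. Since whole females were pooled, fewer cells of a type and less RNA per cell cannot be told apart here. The storage protein gene Lsp2, made in the fat body, moved with line as well: among diapausing CDL females it was lowest in 3OL8, at 2483 CPM against 5632 (175OJ8) and 5031 CPM (265OJ8), and its part in the result was not tested. The yolk protein genes did not share an order among the lines: in diapausing CDL females Yp3 was lowest in 3OL8, at 205 CPM of 205 to 493, and Yp2 was lowest in 265OJ8, at 56.9 CPM against 79.3 CPM in 3OL8 and 124 CPM in 175OJ8. In nondiapausing CDL females both were lowest in 3OL8, at 931 CPM of 931 to 1493 for Yp3 and 388 CPM of 388 to 453 for Yp2.

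**Figure D4:**
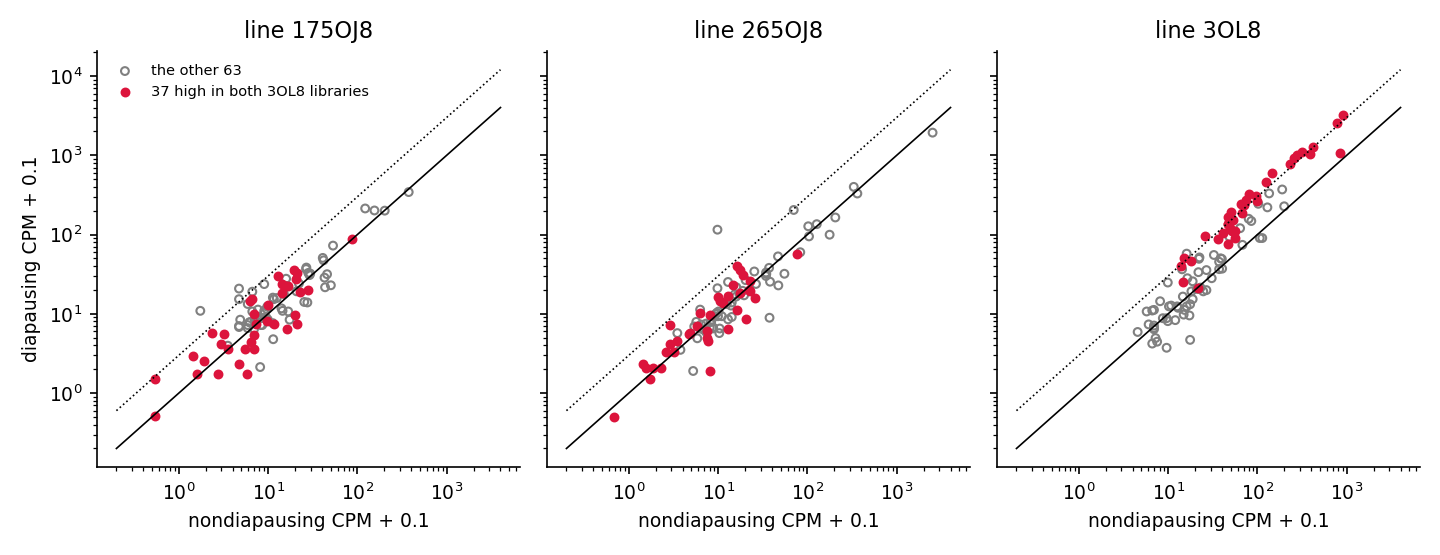
Diapausing against nondiapausing CPM at the CDL, with 0.1 added (both axes log), of the 100 members in each isofemale line; red points are the 37 members high in both 3OL8 libraries, the solid line marks equal levels and the dotted line a factor of 3. In line 3OL8 most red points lie near the dotted line, with a median factor of 3.1 and none at 5 or more, a limit of the rule, and in the other lines around the solid line, with medians of 1.09 and 1.19.

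The test of diapause state at the CDL asked whether members differed between diapausing and nondiapausing females at the same light cycle. A contig that differs strongly between the states has a low smaller mean and is unlikely to enter the list, so few calls follow in part from the rule. With edgeR's likelihood ratio test and FDR < 0.05 over all contigs, 1 member was higher in diapausing females and 0 were lower, against 49.5% of all contigs called in either direction (25.7% higher and 23.7% lower). At an unadjusted P under 0.05 there were 7 members. The quasi-likelihood test called 0 members, with 2 at an unadjusted P under 0.05, against 48.4% of all contigs, and the likelihood ratio test in the 6 CDL libraries alone called 1, against 48.3%. Single libraries moved the count and its direction. Without the diapausing 3OL8 library 26 members were lower, against 21.4% of all contigs, and without the nondiapausing one 41 were higher, against 23.8%. Leaving out the diapausing 175OJ8 library gave 18 higher, against 23.6% of all contigs. Leaving out the diapausing 265OJ8 library gave 14 higher and 3 lower, against 22% and 20.7%. With the nondiapausing 175OJ8 library left out 1 was called, in the lower direction, against 20.2% of all contigs. Without TMM scaling, which moved the median log2 fold change of all contigs from 0.08 to -0.27, 0 members were higher and 1 lower, against 15.6% and 34.2% of all contigs. The member called was contig_23419, named for this call: it had 15.2, 9.22 and 10.6 CPM in diapausing and 4.62, 9.86 and 5.64 CPM in nondiapausing females of 175OJ8, 265OJ8 and 3OL8, a log2 fold change of 0.78 ± 0.343 (SE) with FDR = 0.0451. In line 265OJ8 the order was the other way round. In no member did the 3 diapausing libraries all lie on one side of the 3 nondiapausing ones, an order that 29.7% (diapausing above) and 33.7% (nondiapausing above) of eligible contigs had. The fitted log2 fold change was positive in 76 members, with a median of 0.31 against 0.08 over all contigs. It was positive in 36 of the 37 contigs high in 3OL8, with a median of 1.51. In the other 63 members it was positive in 40, with a median of 0.08. When both 3OL8 libraries were left out it was positive in 56 of the 100, with a median of 0.05.

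With the isofemale line as a block, which compares the states within each line, 28 members were higher in diapausing females and 0 lower, against 51.4% of all contigs (26.9% higher and 24.5% lower); 20 of the 28 were among the 37 contigs high in 3OL8. The quasi-likelihood test with the block called 26, all higher, against 48.9% of all contigs in either direction. dpp had the lowest FDR of these: its factor of diapausing over nondiapausing was 2.27 in 175OJ8, 2.91 in 265OJ8 and 2.38 in 3OL8, and its log2 fold change went from 1.37 ± 0.724 (SE; FDR = 0.109) without the block to 1.35 ± 0.236 (FDR = 1.67e-07) with it. smooth had a log2 fold change of 0.88 ± 0.326 (FDR = 0.0202) and contig_333 of 1.63 ± 0.364 (FDR = 6.37e-05), both with factors of 0.681 to 1.33 in lines 175OJ8 and 265OJ8. Over the 37 the factor had medians of 1.09 in 175OJ8, 1.19 in 265OJ8 and 3.1 in 3OL8, with 1 library per line and state. A call with the block can thus rest on the 3OL8 pair, and it does not show that the states differ in every line. The median tagwise dispersion of the 37 was 0.629 when lines were taken as replicates and 0.0575 with the block, beside 0.0393 and 0.0333 for eligible contigs. Without both 3OL8 libraries, 7 members were higher and 6 lower in diapausing females, against 41.9% of all contigs (20.1% lower), and of the 37 contigs 5 were higher and 4 lower.

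Diapausing LD 16:8 females were compared with nondiapausing LD 22:2 females, all of line 175OJ8. The rule divides by the larger of the means of these groups. A contig that differs strongly between them is thus unlikely to enter the list. Few calls, and few members without overlap, follow in part from the rule. The fit over 12 libraries called 3 members higher and 1 lower, against 49.6% of all contigs (24.8% each way). These 4, named for the call, were contig_338, contig_13109 and contig_1828, higher under LD 16:8 with log2 fold changes of 2.16 ± 0.872, 0.85 ± 0.288 and 0.93 ± 0.37 (SE), and contig_849, lower with -0.95 ± 0.383; their FDR lay between 0.00858 and 0.0371. The quasi-likelihood test also called 3 higher and 1 lower, against 24.2% and 24.4% of all contigs (48.6% either way). Without TMM scaling, which moved the median of all contigs from 0.04 to -0.29, 0 members were higher and 4 lower, against 15.7% and 35.1% of all contigs. The spread between lines at the CDL enters these fits. When only the 6 libraries compared were fitted, 13 members were higher and 8 lower, against 50.2% of all contigs. dpp then had a log2 fold change of 0.80 ± 0.247 (FDR = 0.00356) and CG12316 one of -1.15 ± 0.243 (FDR = 1.22e-05), and for both the 3 libraries of LD 16:8 did not overlap with the 3 of LD 22:2. smooth had -0.16 ± 0.233 (FDR = 0.577), Abl -0.56 ± 0.327 (FDR = 0.136) and Pepck 0.62 ± 0.281 (FDR = 0.0535). Over the members, every LD 16:8 library was above every LD 22:2 library in 17 and below in 12, orders that 29.6% and 34.9% of eligible contigs had. Light cycle and diapause state change together in this comparison and cannot be told apart.

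Line 175OJ8 was compared with the other lines at the CDL in a fit with light cycle, state and line. It was lower in 41 members, 33 of them among the 37 contigs high in 3OL8, and higher in 0, against 0.621% of all contigs lower, 0.403% higher and 1.02% in either direction; 23 of the 100 had a positive log2 fold change and 58 had an unadjusted P under 0.05. The quasi-likelihood test called 34, all lower, against 0.349% of all contigs lower and 0.544% in either direction. Because the groups outside the CDL were all of line 175OJ8, a contig low in that line was favoured by the rule, and nothing is read from this count.

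The annotation deposited with the counts gives each contig a sequence hit and no gene name; none of 15189 distinct hits matched the RefSeq gene table used here, so symbols were taken from the study's own gene lists and covered 5 members. Of the 100 members, 53 had a protein record of RefSeq as their hit, 19 a FlyBase gene, 11 another sequence record, 8 a genomic scaffold and 2 a RefSeq transcript. No hit was given for 7 members (7%), 6 of them high in 3OL8, and for 1.03% of all contigs. Among the 4 contigs with the 3OL8 pattern that were not members, 3 had no hit either: contig_2606, contig_3339 and contig_989. contig_3339 had 60 and 11.3 CPM in the 3OL8 libraries and 0 to 0.521 CPM elsewhere, and was left out by the limit on the highest library.

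Only 2 hits were shared between members. A genomic scaffold was the hit of contig_23189, contig_6955, contig_24258 and contig_2803. Their levels did not run together: contig_23189 was high in 265OJ8, as given above, whereas contig_6955 had 7.11 to 14.8 CPM at the CDL and 4.77 to 8.16 CPM elsewhere, contig_24258 had 7.60 to 11.2 and 4.78 to 7.75 CPM, and contig_2803 had 29.0 to 37.1 and 21.1 to 30.0 CPM. A scaffold can hold many genes. The other shared hit was that of contig_1338 (Pepck) and contig_1828.

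Of 74 members with a RefSeq protein, RefSeq transcript or FlyBase gene as their hit, 41 had 89 further contigs with the same hit and a mean of at least 5 CPM. Since the rule took the contigs of highest ratio, further contigs that met its limits had to be lower. contig_28683, described below, did not meet the limit on the highest library. The ratios of the further contigs were 0.14 to 1.2, and the comparison is a description. For the contigs high in 3OL8, 15 of 23 had 37 such contigs. The ratio of line 3OL8 alone was above 1 in 0 of these 37 and in 8 of all 89, against 7.3% of eligible contigs. Nothing is read from the 0. The hit of CG12316 was shared by contig_15911, at 130 and 104 CPM in the 3OL8 libraries and 97.4 to 609 CPM elsewhere, and by contig_23904, at 1.93 and 11 CPM in 3OL8 and 2.85 to 17.1 CPM elsewhere. Neither was above the other libraries in line 3OL8, as CG12316 was. contig_12463 shared its hit with a contig called HBS1 in the study's lists (contig_28683), which was at 1483 CPM in the nondiapausing 265OJ8 library and at 4.11 to 8.13 CPM in the other 11. Reads that match several contigs equally were not counted, so levels of contigs of near-identical sequence are uncertain.

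Of the 72 contigs that the study listed under neurogenesis, ion transport, reproduction or metabolism, 5 were members (6.94%): smooth and Abl in the list for neurogenesis (20 contigs), CG12316, dpp and Abl in that for reproduction (20 contigs), CG12316, dpp, Abl and Pepck in that for metabolism (46 contigs), and 0 in that for ion transport (10 contigs). The study chose these lists by differences between light cycles in the same libraries, so the count is not independent of the rule. The median ratio was 0.321 over the 72. For diapause state at the CDL, 20 of the 72 were higher (27.8%, beside 25.7% of all contigs) and 12 lower (16.7%, beside 23.7%) in diapausing females, with a median log2 fold change of 0.44 against 0.08 over all contigs, and none of these calls was a member. For LD 16:8 against LD 22:2, 25 were higher (34.7%) and 19 lower (26.4%, beside 24.8% of all contigs each way), with a median of 0.09 against 0.04, and again no member was among them.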

How the data were processed

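Poly(A) RNA of 12 pools of 10 females was sequenced on a SOLiD instrument. The authors assembled contigs de novo with CLC, mapped the reads to them and deposited raw counts of uniquely mapped reads per contig, made with HTSeq, with no normalization; the version of HTSeq is not given in the sources used here. Contigs with hits outside arthropods had been removed. From the tables, 12 blank lines were left out. Counts were scaled by TMM in edgeR 4.0.16 (R 4.3.3, limma 3.58.1). Members were found by the rule given above. Tests followed the design of the study: negative binomial fits with 1 mean per group, common, trended and tagwise Cox-Reid dispersions, a prior count of 0.125 and likelihood ratio tests, with Benjamini-Hochberg FDR over all 31233 contigs. SEs come from the fitted model. edgeR's quasi-likelihood test and DESeq2 1.42.0, RLE scaling, no scaling, a low count filter, the 6 libraries compared only, a block and each library left out were alternatives; the filter kept 29817 contigs and 99 members, and the tests reported used none. The scripts were tested on simulated data.

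The CDL libraries share lines by their labels, and at the CDL libraries of a line deviated from their group means together (correlations of 0.222, 0.153 and 0.341 over 30474 contigs), so the states were also compared with the line as a block. Numbers of the LD 16:8 and LD 22:2 libraries gave -0.0213, -0.122 and 0.0673 and do not pair them. Nothing says that pools of line 175OJ8 came from separate cultures, so P values measure the spread between these pools, and counting error limits low contigs further.

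Members and lists were chosen with earlier results of these data known. Named members are the 10 with the highest ratio, those with a symbol, those sharing a hit, the 3 of highest mean CPM, those at the limit and the 3 highest and 3 lowest in line 175OJ8 alone; a rule for members whose states did not overlap at the CDL named 0. Gene symbols came from the study's supplementary lists. The marker lists by symbol could not be used, since no hit could be paired with a gene name.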

Additional observations from a re-analysis of the deposited data

Results flagged for a closer look

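In 5 members both 175OJ8 libraries at the CDL lay below the mean of their own diapause state at the other light cycle, while all 4 libraries of 265OJ8 and 3OL8 lay above it. Whether the light cycle acts differently in the lines was not tested, since 265OJ8 and 3OL8 were sequenced at the CDL only. The difference between the mean log2 ratio of 265OJ8 and 3OL8 and that of 175OJ8 was 3.93 for contig_23710, 2.73 for contig_23189, 2.57 for contig_4782, 2.38 for contig_25299 and 1.77 for contig_14330. Some of these orders rest on log2 ratios near 0. In contig_25299 the 175OJ8 libraries were at -0.04 and -0.01. The 3OL8 libraries of contig_23710 were at 0.22 and 0.38, and the 265OJ8 libraries of contig_25299 and contig_4782 at 0.09 to 0.3. In these 3 contigs a single line carried the difference. The share of all contigs with this order was not taken. In edgeR's likelihood ratio test of line 175OJ8 against the other lines at the CDL these 5 had FDR between 3.92e-20 and 1.75e-06, in a comparison that the rule favours.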

How the results depend on the processing

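The list depended on line 3OL8 and on the scale. Of the 100 members, 66 were found without TMM scaling, 57 with a mean of at least 1 CPM, 34 with group medians in place of means, and 15 with the CDL libraries of line 175OJ8 only; without both 3OL8 libraries, a setting added after seeing the data, 36 were found. Leaving out 1 library in turn gave 46 to 89, with 46 without either 3OL8 library. The count of 44 members above the larger non-CDL mean in line 175OJ8 was between 41 and 47 with 1 library left out.

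The log2 ratio changed sign by line, in settings added after seeing the data. It sets the lower CDL state against the higher non-CDL mean, so a difference between the diapause states is enough to make it negative. Over eligible contigs the ratio of line 175OJ8 alone, before the log, had a median of 0.564. For CG12316 it was 4.04 with all lines, -1.28 in 175OJ8, -0.67 in 265OJ8 and -0.94 without 3OL8. smooth went from 4 to -0.03, -0.41 and -0.21 in the same settings. In line 175OJ8 dpp went from 2.19 to -1.16 and Abl from 1.44 to -0.13, while Pepck kept its sign in each line. Within a state, line 175OJ8 at the CDL was nearer the mean of the other light cycle for CG12316 and dpp, but not for Abl or Pepck. CG12316 had 7.32 against 8.04 CPM in diapausing and 21.1 against 17.8 CPM in nondiapausing females. For dpp these were 13.2 against 13 CPM and 5.81 against 7.4 CPM. Abl had 4.68 against 3.5 CPM in diapausing and 11.3 against 5.13 CPM in nondiapausing females. In the same order, smooth had 22 against 15.1 CPM and 16.5 against 16.8 CPM. Pepck had 343 against 173 CPM and 375 against 112 CPM. The cause of the sign changes was not tested.

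For diapause state at the CDL, 1 member was called (higher; the 1 without TMM or without the nondiapausing 175OJ8 library was lower), and 0 by the quasi-likelihood test, DESeq2 and RLE scaling, with 2, 2 and 6 at an unadjusted P under 0.05; DESeq2 gave no adjusted p to 34 members. With the replicate block (the line at the CDL) the count was 28, and 26 by quasi-likelihood; without both 3OL8 libraries it was 13. With 1 library left out it was 0 to 41: 41 higher without the nondiapausing 3OL8 library, and 26 lower without the diapausing one; without the diapausing 175OJ8, diapausing 265OJ8 or nondiapausing 265OJ8 library it was 18, 17 and 5. For LD 16:8 against LD 22:2, 4 were called (4 lower without TMM), 21 in the 6 libraries compared, 18 with the replicate block (19 by quasi-likelihood), 20 without both 3OL8 libraries, and 1 to 8 with 1 library left out (8 without the diapausing 3OL8 library, 1 or 2 without LD 16:8 library 1 or 3 or any LD 22:2 library). For diapause state and for LD 16:8 against LD 22:2, 41% to 51.8% of all contigs were called in either direction in each of these settings. For line 175OJ8 against the others, 41 were called, against 1.02% of all contigs. With 1 library left out it was 22 to 50, and 22 was without the diapausing 175OJ8 library.

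Depth limits the members of few reads most: contig_333 had 0 to 5 reads in each library outside line 3OL8.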
